A study of Arabidopsis thaliana with 12 samples.

Results

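Transcripts of 10 loci coding for cell surface glycoproteins were followed through leaves in which actin filaments had been disrupted by a drug. They are 7 fasciclin-like arabinogalactan proteins (FLA1, FLA2, FLA7, FLA8, FLA9, FLA10 and FLA13), 2 classical arabinogalactan proteins (AGP4 and AGP7) and 1 arabinogalactan peptide (AGP12). The loci were taken as a list of 10 identifiers out of 27313 genes in the files, and reads were summed per locus. The members were selected on their read counts and TPM values in the 12 libraries described here, with earlier results known, so their values, and the counts of members that passed a test, are descriptions: the first such count in each comparison stands beside the share of all tested genes that passed, and nothing rests on a test of a member.

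The study took bulk RNA from mature rosette leaves of Arabidopsis thaliana, 4 weeks old, grown at 22 °C under 10 h of light and 14 h of dark. Leaves, 3 on each plant, were infiltrated through a needleless syringe with 1 µM latrunculin B, which binds actin monomers and stops filaments from growing, or with 0.01% DMSO, the mock solution, and were frozen after 24 h. Both Col-0, the wild type (WT), and sid2 were used; sid2 lacks working isochorismate synthase (ICS1) and so makes little salicylic acid, and the labels name no allele. Genotype and treatment make 4 groups of 3 libraries, mock and treated leaves of each genotype, and every group was infiltrated, so no group shows an untouched leaf.

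Arabinogalactan proteins are secreted proteins rich in proline, alanine, serine and threonine. Prolines are hydroxylated in the secretory pathway and then carry large branched chains of galactose and arabinose. Many receive a glycosylphosphatidylinositol (GPI) anchor that holds them on the outer face of the plasma membrane, next to the cellulose and pectin of the wall. Fasciclin-like members add fasciclin domains, folds known from animal cell adhesion proteins; FLA1, FLA2, FLA8 and FLA10 carry a pair, and FLA7, FLA9 and FLA13 a single one. Arabinogalactan peptides such as AGP12 are reduced after processing to a short glycosylated stretch.

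The coding sequences show how differently the classes are built, which bears on how many reads each can collect. The AGP12 coding model is printed whole, and AGP4 and AGP7 from the start codon for 300 bases. They come from the RefSeq annotation of TAIR10.1, at chr3:4409087-4409269 on the plus strand, chr5:3277936-3278235 on the minus strand and chr5:26128976-26129275 on the minus strand. Capitals mark codons for alanine, serine or threonine followed directly by a proline codon, the pairs typical of arabinogalactan glycosylation sites.
AGP12: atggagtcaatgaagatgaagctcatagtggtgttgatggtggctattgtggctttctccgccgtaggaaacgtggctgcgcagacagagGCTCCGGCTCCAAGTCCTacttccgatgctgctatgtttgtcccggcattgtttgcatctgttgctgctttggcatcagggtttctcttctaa
AGP4: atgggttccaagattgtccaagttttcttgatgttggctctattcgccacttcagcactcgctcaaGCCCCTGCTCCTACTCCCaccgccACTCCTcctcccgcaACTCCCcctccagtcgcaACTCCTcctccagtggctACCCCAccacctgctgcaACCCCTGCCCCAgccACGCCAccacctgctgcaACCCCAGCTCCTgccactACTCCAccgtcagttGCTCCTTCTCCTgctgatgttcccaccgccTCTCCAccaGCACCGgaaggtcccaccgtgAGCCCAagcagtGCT
AGP7: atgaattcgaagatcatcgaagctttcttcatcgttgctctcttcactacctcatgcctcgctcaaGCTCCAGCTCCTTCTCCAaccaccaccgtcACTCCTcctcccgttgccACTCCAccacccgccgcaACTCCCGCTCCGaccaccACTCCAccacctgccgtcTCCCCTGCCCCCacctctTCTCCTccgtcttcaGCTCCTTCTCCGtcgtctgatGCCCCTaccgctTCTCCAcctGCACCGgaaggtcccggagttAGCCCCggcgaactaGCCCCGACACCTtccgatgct

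In AGP12 such pairs stand in 1 short run of 3, whereas whole AGP4 and AGP7 hold 21 and 20 of them. Codons for proline, alanine, serine and threonine made up 72.6% of the AGP4 coding sequence, 66.9% of AGP7 and 43.3% of AGP12. In the 7 FLA genes the share ran from 30.8% (FLA13) to 43.1% (FLA8), against a median of 24.9% over the first models of 26393 genes. FLA1 has 2 coding exons and every other member 1, and each member has a single transcript model, so no isoform could be compared. Coding length ran from 183 bases in AGP12 to 1275 in FLA1.

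Sequence likeness among the members matters for how far reads can be told apart. FLA8 and FLA10 were the closest pair, with 81.13% of aligned coding bases identical, followed by FLA9 and FLA13 with 76.63% and AGP4 and AGP7 with 68.1%. Of stretches of 31 bases, the FLA8 and FLA10 models share 34, which is 2.76% of those in FLA8, and no other member shares any with another locus. The estimation can divide reads of shared stretches between 2 genes, but 100% of the deposited counts of FLA8 and of FLA10 were whole numbers. No such division therefore shows in them. Counts were whole in only 91.7% of libraries for FLA7 and for FLA9 and in 83.3% for FLA13, although these 3 share no such stretch. The search for shared stretches thus does not account for every fractional count, and the cause was not tested. Whether whole reads of the shared stretches were placed on the wrong gene was not tested, so the few reads listed for FLA10 remain uncertain.

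Levels between genes are compared in TPM, a unit that Salmon corrects for transcript length. In WT with DMSO, AGP12 was the highest at 389.8 ± 159 TPM (SD, n = 3), above 99% of all genes, and its 3 libraries did not overlap with those of FLA13, the next at 126 ± 47.6 TPM. FLA9 (75.2 ± 34.9 TPM), FLA2 (49.4 ± 17.4 TPM) and FLA8 (37.8 ± 6.07 TPM) followed, and each of them overlapped with its neighbour in that order. FLA7 (18.3 ± 4.71 TPM) and AGP7 (15.3 ± 7.02 TPM) overlapped with each other and lay below FLA8 in every library. At the low end, FLA1 had 4.74 ± 1.43 TPM, AGP4 1.04 ± 0.840 TPM and FLA10 0.0623 ± 0.0646 TPM, with no overlap between neighbours. The TPM of AGP12 rests on an effective length of only 41 to 51 bases, so its place at the top is less certain than the order of the FLA genes.

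In the other 3 groups AGP12 and FLA13 again took the first and second place, and FLA9, FLA8 and FLA2, the next 3, exchanged places. AGP12 was at 150.0 ± 51.5 TPM in WT with latrunculin B, 132.5 ± 63.5 TPM in sid2 with DMSO and 150.2 ± 23.0 TPM in sid2 with latrunculin B. FLA13 was at 11.4 ± 2.71, 37.5 ± 5.73 and 43.5 ± 7.80 TPM in those groups. What moved was the place of FLA13 among all genes: it stood above 96.6% of them in WT with DMSO, 67.7% in WT with latrunculin B, 89.5% in sid2 with DMSO and 90.2% in sid2 with latrunculin B.

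Comparisons of 1 gene between groups use CPM, the counts divided by library size after TMM scaling. Library totals ran from 14506953 to 22449381 reads, and 18149 genes had enough reads to be tested. Of the 10 members 8 were tested; FLA10 and AGP4 had too few reads. Libraries of 1 group differed by far more than counting noise, and nothing in the labels ties them to separate plants; p-values therefore rest on a spread that may be in part technical. As checks of the labels, PR1, a salicylic acid marker, had 118 ± 37.1 CPM in WT with DMSO, 4367 ± 812 CPM in WT with latrunculin B, 0.160 ± 0.181 CPM in sid2 with DMSO and 4.38 ± 2.98 CPM in sid2 with latrunculin B. Transcripts of ICS1 itself (EDS16 in RefSeq) were at 22.6 ± 1.19 and 136 ± 25.0 CPM in WT and 369.6 ± 3.69 and 335 ± 44.4 CPM in sid2, with DMSO and latrunculin B in that order, so the lesion of sid2 does not show as a loss of its transcript.

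In WT, all 8 tested members were lower with latrunculin B than with DMSO, by 3.29-fold to 71.1-fold in the fitted values. The upper end is AGP7, where the size rests on few reads. Of all tested genes 44.8% passed the test in this comparison, 22.7% of all genes as lower and 22.1% as higher (edgeR quasi-likelihood test, Benjamini-Hochberg adjusted p below 0.05). The count is printed beside that share as a description, since the list was drawn up on these libraries. The libraries of the 2 WT groups did not overlap for 9 of the 10 members, which 56.5% of tested genes also showed. In bulk leaf RNA, fewer cells of a type and less RNA per cell cannot be told apart.

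Among genes with a single fasciclin domain, FLA13 (AT5G44130, chr5:17761128-17761871, plus strand) fell by about as much as FLA2 and FLA9. Mock replicates 1, 2 and 3 were at 148, 170.5 and 74.1 CPM and treated ones at 7.74, 12.3 and 8.50 CPM, a log2 fold change of -3.79 ± 0.29 (SE). Every mock library lay well above every treated one. FLA9 (AT1G03870, chr1:982625-983368, minus strand), the most similar gene to FLA13 in sequence, went from 125, 66.3 and 47.6 CPM to 5.81, 3.62 and 11.7 CPM (log2 fold change -3.48 ± 0.52). FLA7 (AT2G04780, chr2:1677488-1678252, plus strand) was less abundant and went from 21.0, 17.3 and 11.3 CPM to 2.83, 5.31 and 1.69 CPM (-2.34 ± 0.40). In all 3 genes replicate 3 was the lowest of the mock libraries and still lay above every treated one.

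Among genes with a pair of fasciclin domains, FLA2 (AT4G12730, chr4:7491598-7492809, minus strand) went from 136, 119.7 and 60.9 CPM to 8.39, 10.9 and 6.72 CPM, a log2 fold change of -3.61 ± 0.36. FLA8 (AT2G45470, chr2:18742797-18744059, minus strand) had the tightest groups, 86.8, 75.3 and 63.2 CPM against 9.93, 8.93 and 8.27 CPM (-3.05 ± 0.27). FLA1 (AT5G55730, chr5:22558375-22560392, minus strand), known from shoot regeneration in culture, was at 10.4, 11.4 and 6.01 CPM and at 3.47, 3.22 and 1.69 CPM (-1.73 ± 0.47). The groups did not overlap in any of these 3 genes. FLA10 (AT3G60900, chr3:22499573-22500841, minus strand), nearest to FLA8 in sequence, had 4, 1 and 1 reads with DMSO and 0, 0 and 5 with latrunculin B, which overlap, and no fold is given for it.

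The classical AGP genes among the members had few or no reads in treated WT leaves. AGP7 (AT5G65390, chr5:26128883-26129275, minus strand) had 149, 105 and 81 reads in WT with DMSO and 5, 0 and 0 reads with latrunculin B. Over the groups this is a ratio of 72.4 after scaling for depth, with a 95% interval of 30.7 to 225 that covers counting error only. Its fitted log2 fold change was -6.15, and -9.84 without WT replicate 1 with latrunculin B, which holds all 5 treated reads; limma on log2(TPM + 1) gave -3.65. AGP4 (AT5G10430, chr5:3277828-3278235, minus strand) had 13, 6 and 3 reads with DMSO and none in any treated library. Taking 3 reads over the treated group as the floor gave a ratio of 7.93 after scaling for depth. That ratio leaves out the counting error of the mock reads and the spread between libraries, so it is no firm lower bound. In the peptide gene AGP12 (AT3G13520), 55.3, 38.1 and 20.6 CPM went to 7.34, 12.9 and 14.3 CPM, a log2 fold change of -1.72 ± 0.40, close to that of FLA1. It remained the most abundant member per length in treated WT leaves.

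**Figure D1:**
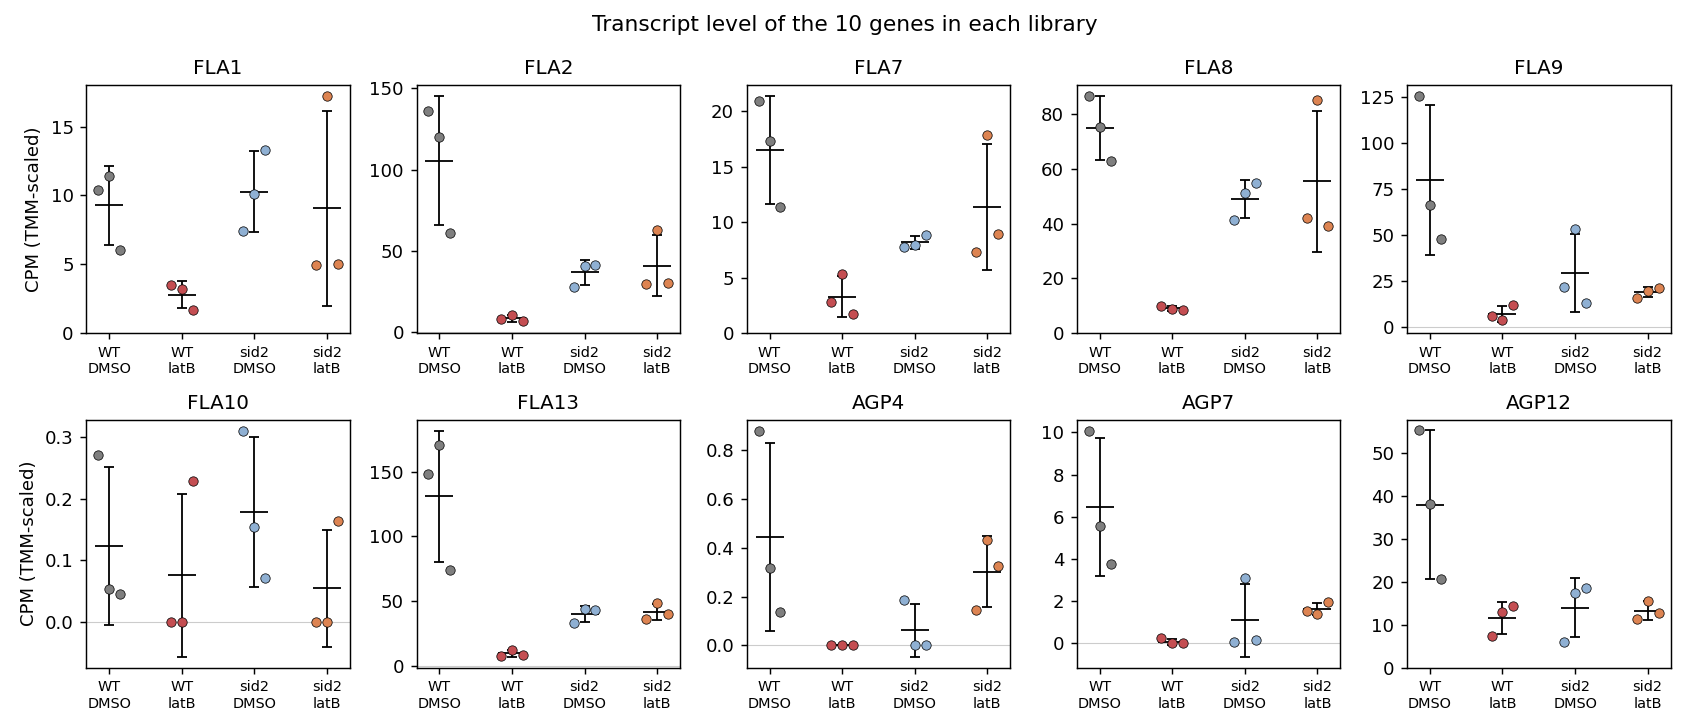
Level of each of the 10 genes in CPM (TMM-scaled, linear axis) in the 12 libraries, by group; points are libraries, horizontal bars the mean and whiskers the SD over 3 libraries. The WT libraries with latrunculin B are below all WT libraries with DMSO in every panel but FLA10, and the libraries of both sid2 groups overlap with each other in every panel.

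In sid2, no tested member passed the test between latrunculin B and DMSO. Of all tested genes 4.73% passed there, 3.53% as higher and 1.21% as lower. None of the 8 had an unadjusted p below 0.05 in edgeR, and DESeq2 and limma also called 0. Log2 fold changes ran from -0.63 (FLA9) to 0.62 (AGP7), and the libraries of the 2 sid2 groups overlapped for all 10 members, while 25.1% of tested genes showed no overlap.

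FLA13 had 32.8, 43.7 and 42.8 CPM in mock sid2 leaves and 35.8, 48.3 and 39.9 CPM in treated ones. Its log2 fold change was 0.06 with a 95% interval from -0.50 to 0.62, the second narrowest among members after that of FLA8, whose interval ran from -0.35 to 0.70. FLA8 had 41.5, 51.1 and 54.8 CPM against 42.1, 85.4 and 39.1 CPM, and FLA2 had 28.0, 40.9 and 41.5 CPM against 29.7, 62.6 and 30.5 CPM. In both, replicate 2 of the treated group stood above the other libraries, and it was the highest treated sid2 library for 7 of the 10 members. FLA1 had 7.44, 10.11 and 13.3 CPM against 4.95, 17.2 and 5.02 CPM, FLA7 7.75, 7.95 and 8.85 CPM against 7.35, 17.8 and 8.95 CPM, and AGP12 6.01, 17.4 and 18.6 CPM against 11.3, 15.7 and 12.9 CPM. Their intervals were wider: from -1.13 to 0.77 for FLA1, from -0.33 to 1.28 for FLA7, from -1.65 to 0.40 for FLA9 and from -0.93 to 0.78 for AGP12 (log2 fold change).

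AGP7 in sid2 turned on 1 library. It had 1, 40 and 2 reads in replicates 1, 2 and 3 with DMSO and 31, 26 and 36 reads with latrunculin B, with a fitted interval from -1.35 to 2.58 (log2). Without replicate 2 of sid2 with DMSO, its log2 fold change became 3.94. AGP4 had 3, 0 and 0 reads with DMSO and 3, 8 and 6 with latrunculin B. FLA10 had 5, 2 and 1 reads and 0, 0 and 3. FLA9 had 21.5, 53.0 and 13.3 CPM in mock and 15.7, 19.6 and 21.3 CPM in treated leaves, and there too replicate 2 of the mock group was the high one.

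The test of the difference between the responses (sid2 minus WT) shares all 4 groups with the comparisons above. It passed for 7 of 8 members, all with a higher value in sid2, where 24.2% of tested genes passed, 13.4% as higher and 10.7% as lower. The differences in log2 response were 6.77 ± 1.52 for AGP7 (4.80 to 10.4 over the alternatives), 3.84 ± 0.38 for FLA13, 3.76 ± 0.47 for FLA2, 3.23 ± 0.36 for FLA8, 2.85 ± 0.69 for FLA9 and 2.82 ± 0.55 for FLA7. For AGP12 it was 1.64 ± 0.56, a call that was lost in 12 of 19 alternatives, among them leaving out either of WT replicates 1 or 2 with DMSO. FLA1, at 1.55 ± 0.64, did not pass.

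Mock leaves of sid2 already had less of several members than mock WT leaves. FLA2, FLA13 and AGP12 passed, all lower in sid2, with log2 fold changes of -1.52 ± 0.32, -1.72 ± 0.26 and -1.44 ± 0.40; 11% of tested genes passed here, 6.56% as lower and 4.46% as higher. FLA7 (-1.01 ± 0.38), FLA8 (-0.61 ± 0.25), FLA9 (-1.45 ± 0.48) and AGP7 (-2.59 ± 0.90) did not pass, and FLA1 was at 0.15 ± 0.44. The libraries of the 2 mock groups did not overlap for 6 members, which 27.1% of tested genes showed. Without replicate 2 of sid2 with DMSO the count rose from 3 to 5, with FLA9 and AGP7 added. AGP12 lost its call without replicate 1 of sid2 with DMSO and without replicate 1 or 2 of WT with DMSO, and in a fit to the 6 mock libraries.

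Under latrunculin B, 7 of the 8 tested members passed with a higher level in sid2, all but AGP12, where 43.4% of tested genes passed, 22.1% as higher and 21.2% as lower. Log2 fold changes were 4.18 ± 1.22 for AGP7, 2.62 ± 0.27 for FLA8, 2.24 ± 0.34 for FLA2, 2.12 ± 0.28 for FLA13, 1.81 ± 0.40 for FLA7, 1.70 ± 0.47 for FLA1 and 1.41 ± 0.50 for FLA9, against 0.20 ± 0.40 for AGP12. The libraries did not overlap for 8 members, which 57.7% of tested genes showed. FLA1 lost its call without replicate 2 of sid2 with latrunculin B and in limma, AGP7 without replicate 3 of WT with latrunculin B, and FLA9 without replicate 2 or 3 of sid2 or replicate 1 or 2 of WT with latrunculin B, and with libraries scaled by size alone.

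Summed over the 10 genes, the level was 462 ± 158 CPM in mock and 52.0 ± 5.80 CPM in treated WT leaves, and 189 ± 41.2 CPM in mock and 192 ± 66.2 CPM in treated sid2 leaves. The wide spread in mock WT leaves came with an order that the members shared: replicate 3 was the lowest for all 10, and replicate 1 the highest for 8. Replicate 3 also had the most reads of the 12 libraries, and the part of depth in this order was not tested. The TMM factors of treated WT libraries were 1.17 to 1.26 and those of the 9 others 0.885 to 1.00. Without TMM scaling the sums in WT were 435 ± 140.3 CPM in mock and 62.4 ± 7.60 CPM in treated leaves, and the libraries still did not overlap.

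**Figure D2:**
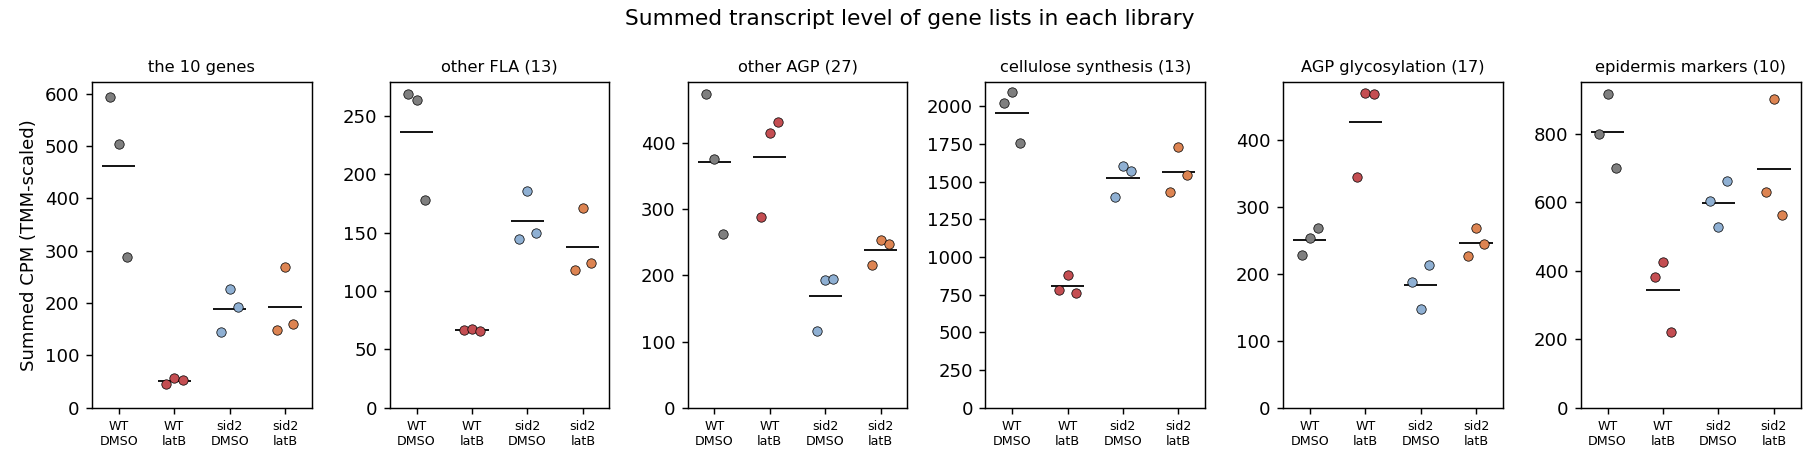
Summed CPM (TMM-scaled, linear axes from 0) of the 10 genes, of the other FLA and AGP genes and of 3 further lists in each of the 12 libraries; points are libraries, bars the mean of 3, and the number in a title is the number of genes in the list. The 10 genes, the other FLA genes, the cellulose genes and the epidermis markers are lowest in the WT libraries with latrunculin B, while the genes of proline hydroxylation and AGP glycosylation are highest there.

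Across the 12 libraries, the members' mean standardised profile was followed most closely by FLA2 (Pearson r = 0.99) and FLA13 (0.98) and least by AGP12 (0.76). Between members, r of log2 CPM was highest for FLA2 and FLA13 (0.99) and lowest for FLA1 and AGP12 (0.43). The 5 other genes most like the mean profile were the primary wall cellulose synthase CESA6 (0.98), AT1G04430 (0.97), AT5G41140 (0.97), the classical arabinogalactan protein AGP9 (0.97) and the pectic galactan synthase GALS1 (0.97). The points share the group means and the same libraries, and 272 of 18149 tested genes had r above 0.9, so these values are a description. CESA6 had 68.1 ± 9.35 CPM in treated WT leaves, 140.2 ± 16.9 CPM in mock sid2 leaves and 139 ± 15.8 CPM in treated sid2 leaves.

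The annotation holds 40 further genes of these families, 13 FLA and 27 AGP, of which 24 were tested. In WT, 6 of the 7 tested FLA genes fell with latrunculin B, where 22.7% of all tested genes passed as lower. The median log2 fold change was -1.80 over the 7, against -0.01 over all tested genes. FLA16 (-2.08 ± 0.26, adjusted p = 2.82e-05), FLA17 (-2.02 ± 0.24, adjusted p = 1.57e-05) and FLA18 (-2.07 ± 0.26, adjusted p = 2.72e-05), which carry a pair of fasciclin domains, fell by similar amounts (edgeR, n = 3 libraries a group). FLA4 (SOS5), needed for normal root growth on salt, fell by 0.98 ± 0.25 on the log2 scale (edgeR adjusted p = 0.00493), a call that limma did not make. FLA15 (-1.34 ± 0.41, adjusted p = 0.0157) and FLA12 (-1.80 ± 0.58, adjusted p = 0.0216) also passed in edgeR, but FLA15 lost its call in limma and without WT replicate 3 with latrunculin B or replicate 2 with DMSO, and FLA12 without WT replicate 1 with latrunculin B or replicate 2 with DMSO. FLA11, known with FLA12 from secondary walls of stems, had 2.14 ± 0.272 CPM in mock and 2.54 ± 1.68 CPM in treated leaves and did not pass.

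The other AGP genes moved in both directions in WT: of 17 tested, 8 fell and 3 rose, against 22.7% and 22.1% of all tested genes. AGP5, a classical AGP, went from 23.6, 26.6 and 25.8 CPM to 159, 217 and 216 CPM (log2 fold change 2.96 ± 0.19, edgeR adjusted p = 2.25e-07). AGP2 (2.86 ± 0.59, edgeR adjusted p = 0.00138) and AGP1 (1.40 ± 0.31, edgeR adjusted p = 0.00213) also rose. In the fitted values AGP5 was at the upper end of the tested FLA and AGP genes, and AGP7, also a classical AGP, at the lower. The place of AGP7 is a description, since it was selected on these libraries and its size rests on few reads. AGP26 fell by 3.52 ± 0.37 on the log2 scale (edgeR adjusted p = 6.44e-06), and AGP9 fell by 2.15 ± 0.25 (edgeR adjusted p = 1.66e-05). Of the lysine-rich AGPs, AGP17 went from 109.6, 85.4 and 37.5 CPM to 3.37, 6.90 and 10.6 CPM (-3.47 ± 0.49, edgeR adjusted p = 6.70e-05). The summed level of the 27 other AGP genes overlapped between the WT groups, unlike that of the 13 other FLA genes. Taken singly, 56.5% of all tested genes showed no overlap in this comparison.

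In sid2, none of the 7 other FLA genes passed with latrunculin B in edgeR, where 4.73% of all tested genes passed. The count was also 0 at an unadjusted edgeR p below 0.05, and 0 by DESeq2 and limma. Of the AGP genes AGP5 rose by a log2 fold change of 2.07 ± 0.19 (edgeR adjusted p = 0.000207), AGP2 by 2.29 ± 0.60 (adjusted p = 0.0452) and the peptide gene AGP15 by 1.15 ± 0.27 (adjusted p = 0.0291). The calls of AGP2 and AGP15 were lost without any 1 of the sid2 libraries other than replicate 3 with DMSO, and that of AGP2 also without 1 of 5 WT libraries. The difference between the responses passed for 11 of the 24 genes, against 24.2% of all tested genes. For 10 the value was higher in sid2, and for AGP5 (-0.89 ± 0.26, edgeR adjusted p = 0.0220) it was lower. The call of AGP5 was lost without sid2 replicate 1 with latrunculin B or replicate 3 with DMSO or WT replicate 1 with DMSO, with adjusted p between 0.00514 and 0.0609 over the 19 alternatives. FLA16 (1.92 ± 0.36), FLA17 (1.77 ± 0.33) and FLA18 (1.83 ± 0.36) were among the 10, with edgeR adjusted p of 0.00214, 0.00199 and 0.00284.

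**Figure D3:**
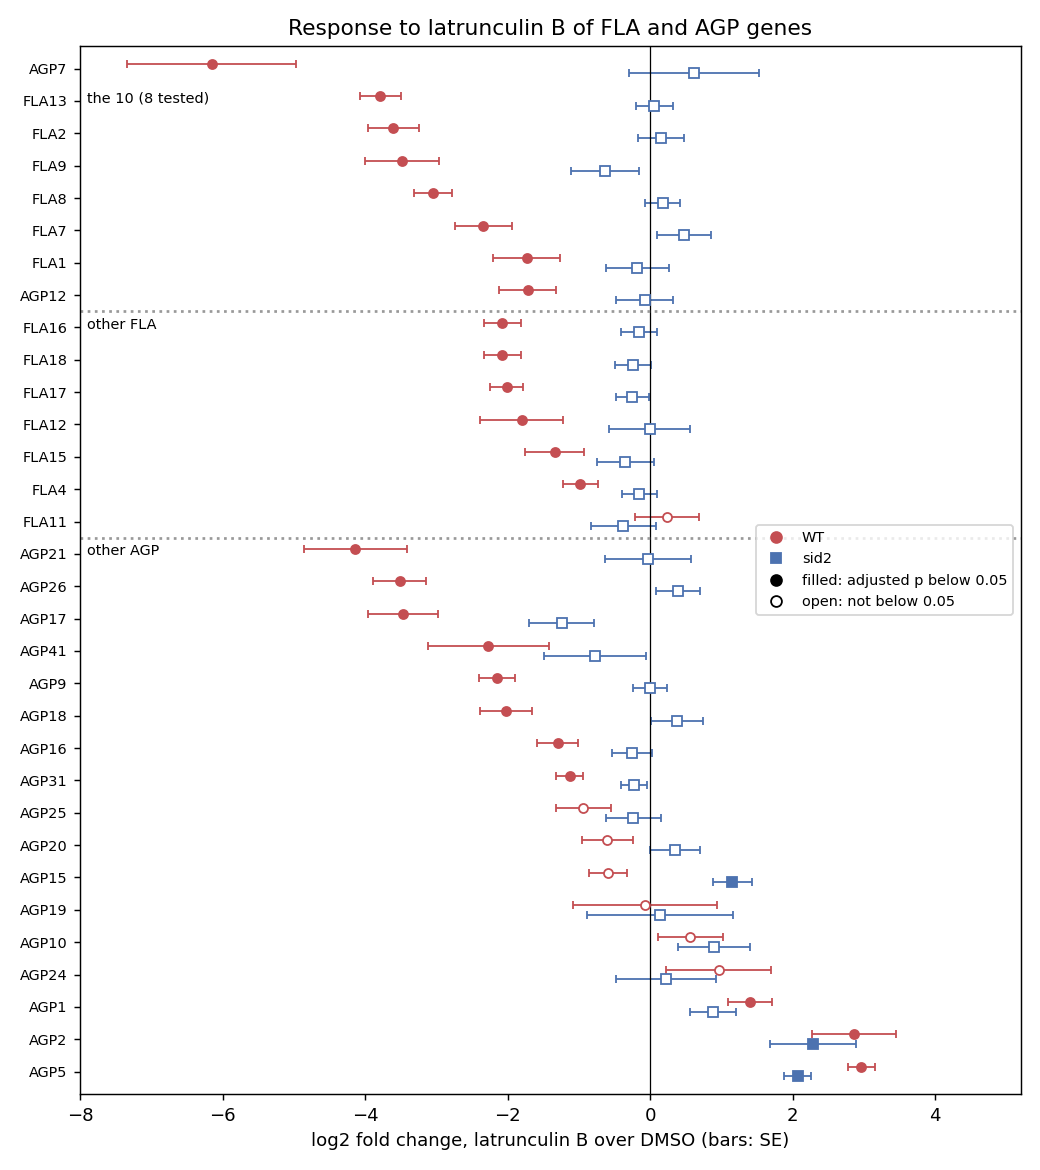
Log2 fold change of latrunculin B over DMSO for the 8 tested members and the 24 other tested FLA and AGP genes, in WT (circles) and sid2 (squares); whiskers are SE, filled symbols passed at an edgeR adjusted p below 0.05. The WT values of the members lie between -6.15 and -1.72 and their sid2 values between -0.63 and 0.62, while AGP5 and AGP2 are to the right of 0 in both genotypes.

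Between mock leaves, 7 of the 24 other genes were lower in sid2 and none was higher, against 6.56% and 4.46% of all tested genes. The 7 were FLA18, AGP5, AGP10, AGP15, AGP16, AGP17 and AGP18. AGP15 (-1.66 ± 0.28, edgeR adjusted p = 0.00195) and AGP5 (-1.23 ± 0.19, edgeR adjusted p = 0.00111) kept their calls under every alternative run, and the other 5 lost theirs without replicate 1 of either mock group. Under latrunculin B, 13 of the 24 differed between genotypes, 10 higher in sid2 and 3 lower, AGP5 (-2.12 ± 0.18), AGP10 (-1.41 ± 0.47) and AGP1. In that comparison 43.4% of all tested genes passed, 22.1% as higher and 21.2% as lower. The 16 untested genes, among them the pollen genes AGP6, AGP11 and FLA3, had between 0 and 26 reads in any group as a whole.

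Genes listed for the modification of these proteins moved in both directions. The list is partial: P4H1, P4H3, P4H4, HPGT1, HPGT2, HPGT3, GALT3, GALT4, GALT5 and GALT6, among others, had no matching symbol and were not looked at. It also takes in genes of sugar donors, such as MUR4. Of 16 tested genes of proline hydroxylation and AGP glycosylation, 7 rose and 2 fell in WT with latrunculin B, against 22.1% and 22.7% of all tested genes, with a median log2 fold change of 0.23. The prolyl 4-hydroxylase genes P4H5 (1.50 ± 0.21, adjusted p = 5.31e-05) and P4H2 (0.99 ± 0.15, adjusted p = 0.000101) rose in edgeR, and so did MUR4, an epimerase gene for UDP-arabinose (2.85 ± 0.25, adjusted p = 1.67e-06). FUT6, coding for a fucosyltransferase of AGPs, passed as higher with 0.0354 ± 0.0614 CPM in mock and 3.49 ± 1.47 CPM in treated leaves. The glucuronosyltransferase gene GLCAT14C fell by 1.92 ± 0.21 on the log2 scale (edgeR adjusted p = 1.02e-05) and the galactosyltransferase gene GALT2 fell by 1.11 ± 0.25 (edgeR adjusted p = 0.00260). In sid2 only MUR4 of this list passed (1.25 ± 0.25, edgeR adjusted p = 0.0140). Of 4 tested genes of GPI anchor synthesis, APTG1 passed in WT, where it fell by 0.69 ± 0.23 (edgeR adjusted p = 0.0261), and lost its call when libraries were scaled by size alone.

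Further GPI-anchored and wall proteins moved in both directions in WT, where 22.7% of all tested genes passed as lower and 22.1% as higher. Of 20 tested genes for further GPI-anchored proteins 11 fell and 2 rose; SKU5, a multicopper oxidase-like protein of directed root growth, fell by 2.86 ± 0.26 (edgeR adjusted p = 2.14e-06), while ENODL1 (2.55 ± 0.26, edgeR adjusted p = 5.80e-06) and LTPG5 (3.14 ± 0.68, edgeR adjusted p = 0.00195) rose. ENODL17, SHV3 and ENODL8 also fell, by 1.65 ± 0.21, 1.42 ± 0.20 and 2.33 ± 0.39. In the COBRA family, COB, which orients cell expansion, and COBL7 fell by 1.27 ± 0.15 and 1.61 ± 0.31, and COBL5 and COBL8 rose by 1.13 ± 0.18 and 1.96 ± 0.33, of 7 tested. Among 8 tested extensin and proline-rich protein genes, EXT3 (2.32 ± 0.24) and EXT1 (0.72 ± 0.26) rose, and PRP4, PRP2, LRX2 and LRX3 fell, the first 3 by 2.09 ± 0.31, 2.19 ± 0.55 and 2.58 ± 0.86.

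In the wall polysaccharide lists most genes fell in WT, where 22.7% of all tested genes passed as lower and 22.1% as higher. Of 12 tested genes of primary wall cellulose synthesis 10 fell in WT and KOB1 alone rose (0.78 ± 0.17, edgeR adjusted p = 0.00183), with a median log2 fold change of -1.49. The catalytic subunit genes CESA2, CESA3 and CESA6 fell by 1.55 ± 0.15, 1.48 ± 0.14 and 1.55 ± 0.15, and CSI1, which links synthase complexes to microtubules, and the chitinase-like gene POM1 fell by 1.57 ± 0.13 and 1.50 ± 0.14. The median of the 8 tested members was -3.27, but they were selected on these libraries, so no comparison with the cellulose list is drawn from it. Of 18 tested pectin and xyloglucan genes 12 fell and MUR3 (0.52 ± 0.13) and RHM1 (0.54 ± 0.18) rose, with a median of -0.79; GALS1, CGR3, GAE6, CSLC4 and XLT2 had the smallest adjusted p among those that fell. In sid2, 0 of the 12 and 0 of the 18 passed, against 4.73% of all tested genes.

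Markers of leaf cell types moved in the same WT comparison, in which 22.7% of all tested genes passed as lower and 22.1% as higher. Of 10 epidermis markers 9 fell, and the summed level was 701 to 916 CPM in mock and 221 to 426 CPM in treated WT leaves, and 527 to 663 CPM in mock and 562 to 901 CPM in treated sid2 leaves. CER3 and GPAT8, of cuticle synthesis, fell by 2.03 ± 0.18 and 2.21 ± 0.31, and ATML1, a regulator of epidermal identity, fell from 14.1 ± 2.17 to 6.60 ± 1.50 CPM. All 4 mesophyll markers fell too: RBCS1A by 1.25 ± 0.18, LHCB1.1 by 1.43 ± 0.18, CAB3 by 1.16 ± 0.20 and RCA by 0.87 ± 0.15, and their summed level in WT was 64370 to 74894 CPM in mock and 23898 to 33351 CPM in treated leaves. In sid2 it was 67596 to 77410 CPM in mock and 58565 to 64402 CPM in treated leaves, and no marker of either list passed there. No marker of these lists was at 0 reads in any group, and their part in the fall of the members was not tested. Guard cell markers were mixed (4 of 7 tested fell, KAT1 rose), and SULTR2;1 of 8 phloem markers and LAC17 and XCP1 of 10 tested xylem markers fell. Of the markers of absent tissues, 5 or 6 of 7 root markers were at 0 reads by group and the flower and pollen markers summed to at most 2.39 CPM. The root markers still summed to 15.3 to 28.2 CPM by library. The 1 tested among them passed as higher in WT with latrunculin B (log2 fold change 0.39).

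Promoter windows of the members were searched for 9 short motifs, as a description with no test. The windows of FLA8 and FLA10 are shown, the closest pair in coding sequence with very different levels, as the 250 bases before the annotated start in RefSeq TAIR10.1, at chr2:18744323-18744572 and chr3:22501240-22501489, both on the minus strand. Capitals mark TATAAA and TTGAC on either strand; in FLA10, 2 matches to TATAAA on opposite strands overlap.
FLA8: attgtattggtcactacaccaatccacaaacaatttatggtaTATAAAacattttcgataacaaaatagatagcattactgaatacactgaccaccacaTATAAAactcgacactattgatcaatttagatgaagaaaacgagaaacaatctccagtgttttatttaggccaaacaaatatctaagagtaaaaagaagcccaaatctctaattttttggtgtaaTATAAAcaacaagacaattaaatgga
FLA10: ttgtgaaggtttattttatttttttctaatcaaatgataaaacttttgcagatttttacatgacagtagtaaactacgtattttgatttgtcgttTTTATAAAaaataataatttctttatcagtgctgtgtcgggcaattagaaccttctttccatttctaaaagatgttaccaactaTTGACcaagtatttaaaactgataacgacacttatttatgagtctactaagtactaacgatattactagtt

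FLA8 has TATAAA at positions -208, -151 and -26 from its start, counted at the first base of each match. FLA10 has its overlapping matches at -153 and, on the opposite strand, at -155. Over all 10 windows, TATAAA was found in 6 members, and 47.49% of 26420 promoter windows of the same length hold it. TTGAC, the core of the W-box that WRKY factors bind, was found in 4 members (FLA1, FLA9, FLA10 and AGP4) and in 44.71% of all windows. The auxin response element TGTCTC was in 1 member, FLA1, and in 11.1% of windows. No match was found to the G-box CACGTG (in 6.69% of all windows), the site II element TGGGCC (13.93%), the telo-box AAACCCTA (4.83%), the brassinosteroid element core CGTGCG (1.56%), the GCC box GCCGCC (1.86%) or the I-box core GATAAG (12.38%). Both strands were searched for each.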

How the data were processed

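RNA-seq libraries of 12 leaf samples in 4 groups of 3 were analysed. Per the submitters' processing notes, Trimmomatic and Salmon 1.3.0 were run by the authors, with TAIR10 as the build. Per transcript model, the file headers name an estimated count of reads, which the authors obtained with Salmon and deposited, a TPM value and lengths; 99.99% of lengths are multiples of 3, so the models hold coding sequence. The authors' TPM values were used as deposited.

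These counts were summed per locus and rounded to whole numbers. Genes were filtered with filterByExpr, scaled by TMM and tested with edgeR 4.0.16 (quasi-likelihood, R 4.3.3) in 1 model over the 12 libraries, with p adjusted over 18149 genes and a threshold of 0.05. The steps were tested on simulated data. Alternatives were other scalings, no filter, DESeq2 1.42.0, limma 3.58.1 on TPM values (log2 after adding 1 or 0.1; genes needed a TPM of 1 or more in 3 or more libraries), effective-length offsets, the 6 libraries of a comparison alone, and leaving out each library. Replicates are numbered in accession order. Likeness used log2 CPM with a prior count of 2.

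The members, lists, motifs and tests were chosen with earlier results of these data known. Named genes are the 10 members, in each list up to 5 with the smallest adjusted p in WT among those passing and every gene behind a count of 5 or fewer that is printed, the 5 most like the members, and ICS1 and PR1; genes named beyond that were chosen after their values were seen. List entries were matched to RefSeq symbols of TAIR10.1: 218 matched, 33 had no match and 5 were left out because the symbol names another gene. Of 32140 models matched by name, 96.27% had equal length in both annotations, among them all 10 members; coordinates and sequences are those of TAIR10.1. Protein sequences were not used here.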

Additional observations from a re-analysis of the deposited data

Results flagged for a closer look

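The response to latrunculin B differed between sid2 and WT by the test of the difference itself (edgeR, adjusted over all genes) in 11 of the 24 tested FLA and AGP genes outside the 10 members, where 24.2% of all tested genes passed. The values are log2 response in sid2 minus log2 response in WT. They were 4.112 for AGP21, 3.908 for AGP26, 2.401 for AGP18, 2.23 for AGP17, 2.147 for AGP9, 1.922 for FLA16, 1.828 for FLA18, 1.767 for FLA17, 1.737 for AGP15 and 0.9013 for AGP31. AGP5 alone of the 11 had a negative difference, -0.8909: it rose in both genotypes. Of 19 alternatives, AGP5 lost its call in 3, each without 1 library (sid2 replicate 1 with latrunculin B, sid2 replicate 3 with DMSO or WT replicate 1 with DMSO). AGP17 lost its call in 3, without sid2 replicate 2 with latrunculin B, WT replicate 1 with latrunculin B or WT replicate 1 with DMSO, and AGP31 in 6, among them limma and scaling by library size alone. The other 8 kept theirs in all 19.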

How the results depend on the processing

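With 3 libraries a group, low reads limit AGP4, AGP7 and FLA10 most. No paired analysis was possible because the labels give no replicate numbers. The 8 members lower in WT with latrunculin B (22.7% of all tested genes) stayed at 8 when each of the 12 libraries was left out and at 8 or 9 under the 8 other alternatives, where AGP4 is the ninth if low counts are not filtered. Because the members were selected on these same libraries, that steady count is a description and not support. With no TMM factors, only library sizes, the median over all genes in WT was 0.33 (log2) and the split of all calls went from 4012 higher and 4115 lower to 6818 and 2521; limma on log2(TPM + 1) gave 6942 and 2395. Under both, all 8 members remained lower, while 5 phloem markers passed as higher, 6 of 10 epidermis markers as lower and no xylem marker, and the median of the GPI anchor genes was 0.35 and 0.31.

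For members in sid2 the count of 0 (4.73% of all tested genes) became 0 to 1 with libraries left out; in mock leaves the count of 3 (11% of all) became 2 to 5. For the other FLA and AGP genes, the 3 calls in sid2 became 1 to 4 with libraries left out and 1 in a fit to the 6 libraries, and the 7 calls in mock leaves became 2 to 9 and 3; the cause was not tested. Over the members' log2 fold changes, 737 alternatives kept direction and call, 25 lost a call, 9 gained one and 21 turned in sign, all 21 in values that had not passed. In sid2, the response of AGP12 was 0.0794 by library size alone, 0.317 and 0.320 by limma, 0.0639 with effective-length offsets and -0.44 to 0.19 with libraries left out. The ranges with libraries left out were -1.04 to 0.12 for FLA1, -0.29 to 0.34 for FLA2, -0.0058 to 0.71 for FLA7, -0.27 to 0.37 for FLA8, -0.98 to 0.11 for FLA9 and -0.0697 to 0.15 for FLA13. In mock leaves FLA1 ran from -0.0868 to 0.34. In treated leaves, sid2 against WT, AGP12 was -0.0804 by library size alone and -0.0461 to 0.38 with libraries left out.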

Other observations

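Guard cell and phloem markers showed patterns unlike that of the 10 genes. KAT1, a potassium channel gene of guard cells, was at 18.2 ± 1.28 CPM in WT with DMSO, 82.2 ± 10.2 CPM in WT with latrunculin B, 26.7 ± 9.29 CPM in sid2 with DMSO and 15.4 ± 4.48 CPM in sid2 with latrunculin B; its response differed between genotypes by -2.97 ± 0.35 (log2, edgeR adjusted p = 0.000143). The guard cell genes FAMA, MYB60, TGG1 and OST1 fell in WT, by 0.87 ± 0.32, 1.80 ± 0.50, 0.54 ± 0.19 and 0.93 ± 0.24. The phloem sucrose transporter gene SUC2 was at 265, 259 and 242 CPM in sid2 with DMSO and at 117, 126 and 128 CPM with latrunculin B (log2 fold change -1.05 ± 0.14, edgeR adjusted p = 0.00175). AHA3, PP2-A1, APL and NAKR1 fell in sid2 as well, by 0.73 ± 0.15, 0.59 ± 0.14, 0.54 ± 0.13 and 0.62 ± 0.16. In mock leaves SUC2, AHA3, PP2-A1 and APL were higher in sid2 than in WT, by log2 fold changes of 0.84 ± 0.14, 0.71 ± 0.15, 0.75 ± 0.14 and 0.49 ± 0.13.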
